A study of Drosophila melanogaster with 159 samples.

Results

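The genes described here act on chitin in the fruit fly Drosophila melanogaster: kkv, which encodes a chitin synthase, obst-A, which encodes a chitin-binding protein, and Cht7, which encodes a chitinase. They were chosen by name, and each was read from the array probe annotated to that gene alone, so that 3 of the 3045 genes named on the array and 3 of its 12588 probes are covered. Probe 3689 stood for kkv (CG2666, chromosome 3R), probe 8728 for obst-A (CG17052, chromosome X) and probe 8940 for Cht7 (CG1869, chromosome 3L). The study followed RNA through the life cycle on cDNA arrays, each of which set poly(A)+ RNA of a sample against a common reference RNA, and every value below is a log2 ratio of sample to reference after centring each array on its median. No tissue is named in the labels, so the samples are read as whole animals.

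The flies were the Canton S wild type, raised at 25 °C. Embryos came from 30 overlapping 1 h collections (60 arrays), larvae from 10 times (24 arrays), of which the last, the one after 96 h, was also split by sex, and pupae from 0 to 96 h after the white prepupa, the moment of puparium formation (35 arrays at 18 times). Wild-type females and males were taken at 0-24 h after eclosion and at 3, 5, 10, 15, 20, 25 and 30 d (32 arrays). A further 8 arrays carry the word tudor in their titles, females and males at 0-24 h and 5 d. Mothers mutant for tudor are known to give progeny without germ cells, but the labels name no allele and repeat the wild-type strain for these flies. Of the 80 groups, 79 held 2 arrays and the time at 0 h of metamorphosis held 1. Nothing in the labels says that the arrays of a group came from separate cultures, and the p-values therefore speak only of how far these arrays scatter, which can be technical scatter. Most windows compared below pool several times, so their scatter also holds change between those times. Many slides carried 2 arrays, which may not be independent of each other. Where groups of arrays are said not to overlap, the share of all probes without overlap was not counted.

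Chitin, a polymer of N-acetylglucosamine, stiffens the insect cuticle, the lining of the tracheae and the foregut and hindgut. A synthase in the apical membrane of epithelial cells extrudes the polymer, chitin-binding and deacetylating proteins order it in the newly made layer, and chitinases cut it. Each molt, the formation of the pupal cuticle beneath the puparium and the formation of the adult cuticle in the pupa need a new layer. In whole animals, fewer cells that express a gene and less RNA per cell cannot be told apart.

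The arrays differed in ways that bear on these genes. The slides were numbered in 2 ways. Those of 57 arrays are called slide set A here and those of the other 102 slide set B, and each model carried a term for the set. The replicate 1 arrays of embryo 2-3 h, embryo 4-5 h, metamorphosis 12 h and metamorphosis 16 h stood apart: they correlated 0.25, 0.32, 0.01 and 0.02 with their other replicate, against a median of 0.84 for other replicate pairs. Each correlated best with another of these 4 arrays. Where leaving them out of a comparison changed a call or a sign, the value without them is also given. The order of windows and the correlations of profiles keep all arrays. Values of kkv were present on 158 arrays (-4.11 to 2.32), of obst-A on 157 (-6.36 to 3.89) and of Cht7 on 150 (-4.49 to 3.19). The 9 arrays without a Cht7 value were the replicate 1 arrays from 20 to 80 h of metamorphosis, all of slide set A, so that stretch of the Cht7 profile rests on 1 array a time. Sex marker genes matched the labels, with the mean of 3 genes of the male accessory gland and sperm (Acp36DE, Hsp60B and Tektin-A) between 2.67 and 4.17 in wild-type males and between -3.97 and -1.70 in wild-type females.

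In the embryo, RNA of all 3 genes rose between 7-10 h and 13-16 h, ahead of and during the secretion of the larval cuticle. The synthase gene kkv started from its lowest window of the life cycle, -4.11 to -2.72 over the 6 arrays of 0-2 h (median -3.66). It lay between -2.44 and -0.72 at 7-10 h (median -1.74) and between 0.85 and 1.38 at 13-16 h (median 1.21). No array of the later window overlapped the earlier one, and kkv rose by 2.63 ± 0.26 on the log2 scale (SE, 6 arrays against 6, limma adjusted p = 2.1e-06), a 6.18-fold change. The binding gene obst-A lay between -3.58 and -1.67 at 7-10 h (median -2.55) and between 0.51 and 1.20 at 13-16 h (median 0.82). Its rise of 3.32 ± 0.28, 10.0-fold, had an adjusted p of 6.13e-07. The chitinase gene Cht7 lay between -2.05 and -0.53 at 7-10 h (median -1.37) and between 0.28 and 1.29 at 13-16 h (median 0.72). It rose by 1.97 ± 0.30 (adjusted p = 1.09e-04), again without overlap. Slide set A holds 1 array of 7-10 h, the one of 9-10 h, so the value of 1.15 within that set is no separate test. The muscle genes up (troponin T) and Prm (paramyosin) rose over the same hours, by 4.86 ± 0.19 (adjusted p = 2.01e-09) and by 2.34 ± 0.21 (adjusted p = 9.53e-07). The other muscle marker, Mf (myofilin), had a mean of -3.34 at 7-10 h and -2.77 at 13-16 h. The part of these genes in the Cht7 value was not tested. Of the 6804 probes tested, 18.8% rose, 21.0% fell and 39.9% changed in either direction.

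**Figure D1:**
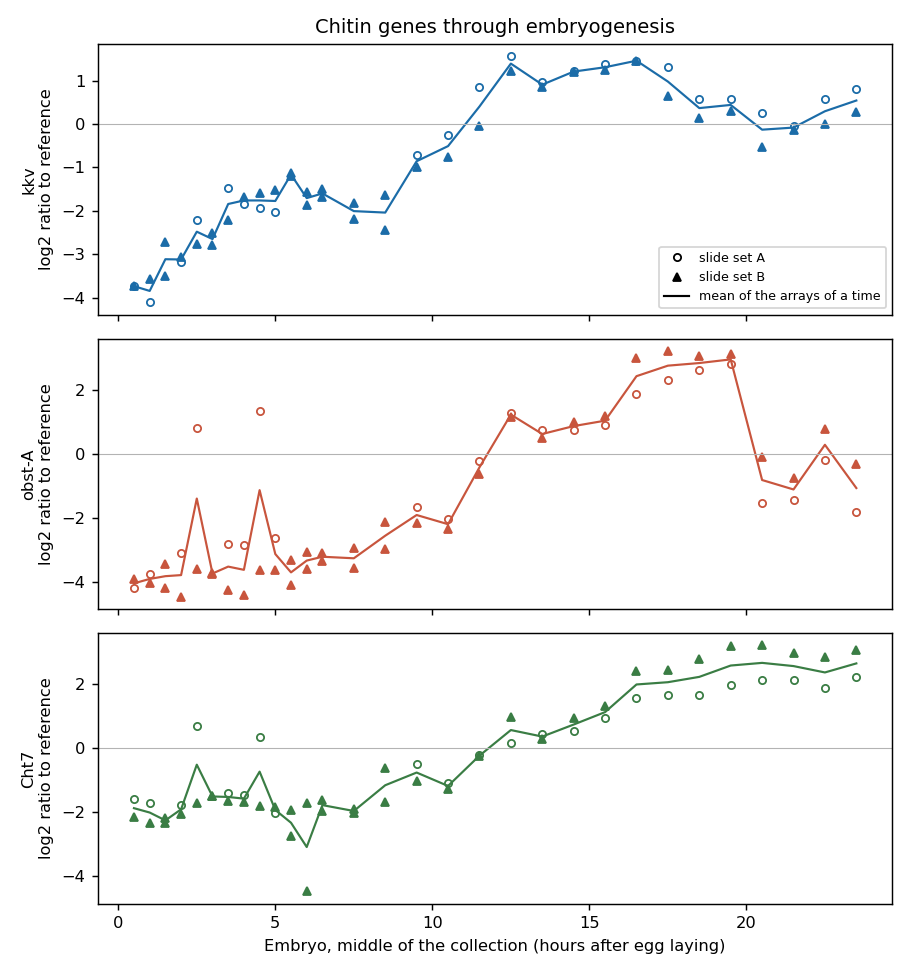
Log2 ratio to the reference (vertical axes) of kkv, obst-A and Cht7 against the middle of each embryo collection in hours after egg laying. Points are arrays (circles slide set A, triangles slide set B) and the line joins the means of each time. All 3 genes are below 0 before 10 h apart from the replicate 1 arrays of 2-3 h and 4-5 h for obst-A and Cht7. obst-A reaches 2.97 at 19-20 h and falls at 20-21 h, while Cht7 does not go below 1.86 after 20 h.

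After 16 h the genes parted. The mean of kkv was highest at 16-17 h, where both arrays read 1.46, after a level of 1.39 at 12-13 h. At 20-24 h its 8 arrays lay between -0.52 and 0.81 (median 0.13). All of these were below the lowest array of 13-16 h, and the fall of 0.99 ± 0.16 passed (adjusted p = 4.48e-05).

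obst-A went on rising. Its 8 arrays at 16-20 h lay between 1.87 and 3.23 (median 2.91), and its 8 arrays at 20-24 h between -1.82 and 0.78 (median -0.54). From 13-16 h to 16-20 h, also added later, obst-A rose by 1.91 ± 0.16 (adjusted p = 5.69e-07) and Cht7 by 1.47 ± 0.19 (adjusted p = 2.10e-05), while kkv changed by -0.33 ± 0.20 (adjusted p = 0.21). There 20.9% of probes rose, 16.8% fell and 37.6% changed. The windows of 16-20 h and 20-24 h did not overlap, and the last array pair before the step, at 19-20 h, read 2.81 and 3.12 against -1.54 and -0.09 at 20-21 h. Between those last windows, a comparison added after the values were seen, obst-A fell by 3.43 ± 0.23 on the log2 scale (adjusted p = 4.77e-08). That change ranked 4 in size among 6770 probes, of which 17.5% fell, 23.3% rose and 40.8% changed. Against 13-16 h, obst-A at 20-24 h was lower by 1.53 on the log2 scale (change of -1.53 ± 0.28, adjusted p = 1.55e-04).

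Cht7 stayed high up to hatching. Its arrays at 16-20 h lay between 1.56 and 3.16 (median 2.18) and at 20-24 h between 1.86 and 3.19 (median 2.53), with the highest mean of the life cycle, 2.65, at 20-21 h. It rose by 1.82 ± 0.17 from 13-16 h to 20-24 h (adjusted p = 1.20e-07), the opposite direction to kkv and obst-A over the same arrays. In that comparison 64.9% of probes passed, 34.0% higher and 30.9% lower, so a call is itself common here. The further rise from 16-20 h to 20-24 h was 0.35 ± 0.11 (adjusted p = 0.022), and under quantile normalization it was 0.00. That call was also lost without centring (adjusted p = 0.088), without the slide set term (0.33), in slide set A (0.082), in slide set B (0.26) and with all arrays in 1 fit (0.47). The muscle genes up, Prm and Mf (myofilin), all 3 of the muscle markers listed, moved with Cht7 here. Their mean lay between -1.45 and -0.80 at 13-16 h and between 1.34 and 2.57 at 20-24 h, and the part of muscle tissue in the Cht7 value was not tested.

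Earlier in the embryo, kkv was the gene with the clearest rise. From 0-2 h to 4-7 h it rose by 1.90 ± 0.16 (adjusted p = 5.58e-08, 6 arrays against 10), in a comparison added later in which 32.9% of probes rose, 21.3% fell and 54.2% changed. The changes of obst-A (1.23 ± 0.51, adjusted p = 0.052) and Cht7 (0.21 ± 0.41, adjusted p = 0.68) did not pass. Without the 2 arrays of these times that stood apart, obst-A rose by 0.62 (adjusted p = 0.011) and Cht7 read -0.08.

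In larvae, the arrays at 72 h held the highest levels of obst-A, and the arrays at 96 h the highest levels of kkv. For Cht7 the means at 72 h (1.77) and 57 h (1.75) were close. Its slide set B array at 72 h was above both arrays of 57 h, and its slide set A array below both. The scan comment of the slide set B array at 72 h disagrees with its title. The labels say that larvae were synchronized at hatching, but not whether the hours in the titles count from hatching or from egg laying. Counted from hatching, the larval molts of this species fall near the 24 h and 49 h arrays, and counted from egg laying near the 49 h and 72 h arrays. The levels are therefore given by the hours in the titles, without a molt assigned to each.

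The 4 arrays of kkv at 24 and 33 h lay between -0.56 and 0.01, those at 43 and 49 h between -0.68 and 0.00 and the 6 arrays at 57 to 72 h between -0.98 and 0.39. These ranges overlapped throughout. At 96 h the 2 arrays read 1.30 and 1.03, above all other larval arrays, and the 6 arrays of the last larval time lay between -1.40 and 0.38. From 57-72 h to the last 2 larval times, 96 h and the one after it, the change of kkv was 0.65 ± 0.42 and did not pass (adjusted p = 0.24). Without the 3 arrays in this comparison whose scan comments disagree with their titles, the change was 1.23 with an adjusted p of 0.021.

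obst-A was low at 24 and 33 h, where its 4 arrays lay between -2.44 and -0.79. At 43 h it read -0.58 and -0.52, at 49 h -2.14 and -1.54, at 57 h 1.42 and 1.35, and at 67 h -0.92 and 0.44. At 72 h both arrays were high, 2.28 and 2.38, and the level then fell through 84 h (0.92 and 1.12) and 96 h (0.14 and 1.15) to the last larval time, where the 6 arrays lay between -1.64 and -0.73. The profile thus had separate high points at 57 h and 72 h, each seen on both slide sets, with lower arrays at 49 h and 67 h. The scan comment of the slide set B array at 72 h disagrees with its title, and the slide set A array there read 2.28. Set against 57-72 h, the arrays of 43-49 h were lower by a change of -2.54 ± 0.57, which ranked 3 in size among 6873 probes but missed the threshold (adjusted p = 0.070). In that comparison 0.102% of probes passed, 0.0145% higher and 0.0873% lower, and obst-A passed under quantile normalization (-2.59, adjusted p = 0.045) and without either array of 67 h.

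Cht7 was above 0 on all larval arrays before the last time but the 49 h replicate 1 array. The 4 arrays of 24 and 33 h lay between 0.34 and 1.22, and the pair at 43 h read 1.81 and 1.29. The lowest pair of this stretch was at 49 h (-0.05 and 0.50), and the highest means were at 72 h (1.53 and 2.01) and 57 h (1.84 and 1.66). At the last larval time the arrays spread widely, from -2.07 to 0.67 (median -1.56). The single array above 0 there was the mixed-sex replicate 2.

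Both genes fell at the end of larval life. From 57-72 h to the last 2 times, obst-A fell by 1.90 ± 0.58 (adjusted p = 0.023) and Cht7 fell by 1.83 ± 0.63 (adjusted p = 0.038), where 20.1% of probes fell, 12.0% rose and 32.1% changed. These calls depended on the arrays used. Without the arrays of disagreeing comments obst-A read -1.39 (adjusted p = 0.15) and Cht7 -1.48 (adjusted p = 0.17), and in slide set B alone Cht7 read -2.30 (adjusted p = 0.0503). Slide set A holds 1 array of the last 2 times and gives no test. Leaving out single arrays ended the call of Cht7 in 8 cases, those at 57 h (both), 67 h replicate 2, 72 h replicate 2 and, at the last time, female replicate 2, both male arrays and mixed-sex replicate 1. It ended that of obst-A in 2 cases, 57 h replicate 2 and 72 h replicate 2. The window joins the 96 h arrays, where both genes were still above 0, with those of the last time. In a comparison of the last time alone with 72-84 h, added after the values were seen, obst-A fell by 3.00 ± 0.41 (adjusted p = 0.0014) and Cht7 fell by 3.01 ± 0.61 (adjusted p = 0.0080), where 13.3% of probes fell, 6.87% rose and 20.2% changed. The change of kkv was -0.57 ± 0.43 (adjusted p = 0.38). All arrays of the last time were of slide set B. With the slide set term this added comparison therefore rests on the slide set B arrays of 72 h and 84 h. Without the arrays of disagreeing comments, obst-A read -2.42 and Cht7 -2.94. Those values rest on the slide set B array of 84 h alone and are no test. Mean levels of the muscle markers also dropped, from between 1.17 and 1.61 at 72-84 h to between -1.83 and 0.31 at the last time, and their part in the Cht7 value was not tested.

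**Figure D2:**
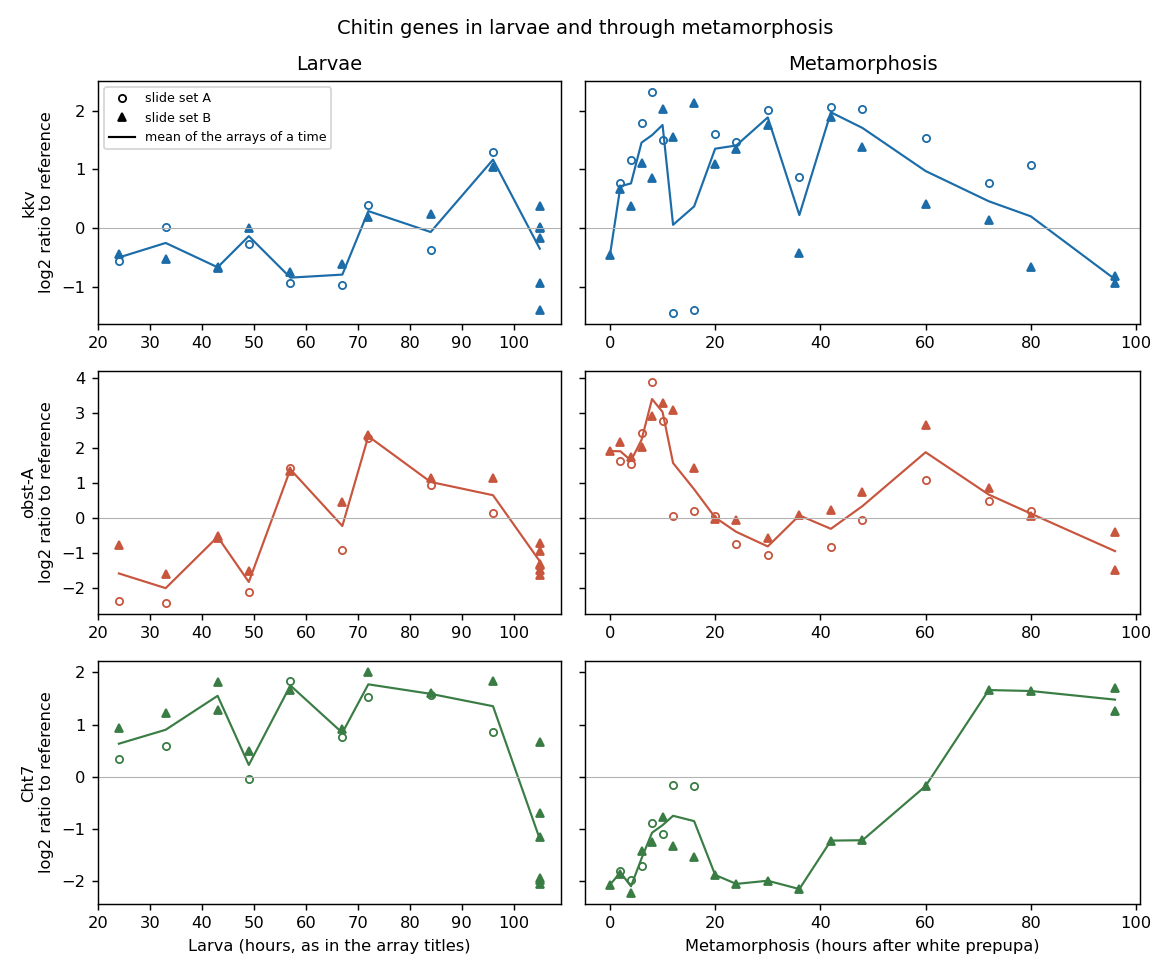
Log2 ratio to the reference (vertical axes) of kkv, obst-A and Cht7 in larvae against the hour given in the titles (left) and in metamorphosis against hours after the white prepupa (right). Points are arrays (circles slide set A, triangles slide set B) and the line joins the means of each time. obst-A has high points at 57 h and 72 h and again at 8 and 10 h of metamorphosis. Cht7 is near -2.0 from 0 to 4 h and reaches 1.66 at 72 h, and the low kkv circles at 12 and 16 h are the arrays that stood apart.

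At puparium formation, obst-A was the gene that rose. The 5 arrays of 0, 2 and 4 h lay between 1.53 and 2.18 (median 1.74), while the 8 arrays of the last 2 larval times lay between -1.64 and 1.15 (median -1.14). The groups did not overlap, and the change was 2.51 ± 0.43 (adjusted p = 0.00123), with 8.95% of probes higher, 11.6% lower and 20.6% changed. Against the last larval time alone it was 3.19 ± 0.22 (adjusted p = 1.75e-05), a 9.14-fold rise, in an added comparison where 4.88% of probes rose, 7.00% fell and 11.9% changed. All arrays of that larval time were of slide set B. With the slide set term the value therefore rests on the slide set B arrays at 0, 2 and 4 h (1.91, 2.18 and 1.74).

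kkv did not pass this step. Its arrays lay between -0.46 and 1.15 at 0-4 h, inside the range of the last 2 larval times, and the change was 0.18 ± 0.37 (adjusted p = 0.77). Cht7 lay between -2.23 and -1.82 at 0-4 h, close to its lowest window. The arrays of the last 2 larval times ranged from -2.07 to 1.85 and so overlapped it, and the change of -1.65 ± 0.62 missed the threshold (adjusted p = 0.075). It passed without the female replicate 2 array of the last larval time.

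In the hours of pupal cuticle formation, from 6 to 12 h, obst-A reached the highest values of its profile and kkv was high. kkv read 1.79 and 1.11 at 6 h, 2.32 and 0.85 at 8 h, 1.49 and 2.02 at 10 h, and -1.45 and 1.55 at 12 h. obst-A read 2.42 and 2.04 at 6 h, 3.89 and 2.91 at 8 h, 2.78 and 3.28 at 10 h, and 0.04 and 3.09 at 12 h. For both genes the low value at 12 h is that of the array that stood apart. Cht7 lay between -1.72 and -0.17 (median -1.18), above its level at 0-4 h on all 8 arrays.

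With all arrays, none of the 3 genes passed between 0-4 h and 6-12 h, a comparison in which limma called 1.46% of probes at the adjusted threshold (0.851% higher, 0.612% lower). The changes were 0.71 ± 0.52 for kkv (adjusted p = 0.61), 0.81 ± 0.47 for obst-A (adjusted p = 0.50) and 0.89 ± 0.23 for Cht7 (adjusted p = 0.080). Without the 12 h replicate 1 array, all 3 rose, by 1.08 (adjusted p = 0.032), 1.12 (adjusted p = 0.040) and 0.78 (adjusted p = 0.035). The calls therefore rest on whether that array is kept.

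Later in metamorphosis the binding gene fell, and no change of the synthase gene passed. From 6-12 h to 16-30 h obst-A fell by 2.66 ± 0.44 (adjusted p = 0.0079), to between -1.08 and 1.43 over 8 arrays (median -0.05). It ranked 13 in size among 6906 probes, of which 1.59% fell, 0.420% rose and 2.01% changed. The call was lost in slide set A alone (-2.68, adjusted p = 0.12) and without the 9 replicate 1 arrays of 20 to 80 h (-2.48, adjusted p = 0.0998). kkv changed by 0.04 ± 0.52 (adjusted p = 0.98) and, apart from the 16 h replicate 1 array at -1.39, its arrays from 16 to 30 h lay between 1.09 and 2.13. Cht7 changed by -0.25 ± 0.31 (adjusted p = 0.69).

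kkv stayed high through the time at which adult cuticle formation begins. Its highest mean of the life cycle was 1.97 at 42 h (2.06 and 1.88), next to 1.88 at 30 h (2.00 and 1.76), and 48 h read 2.03 and 1.38. The pair at 36 h was lower and split, 0.86 and -0.43. Neither kkv (0.05 ± 0.52, adjusted p = 0.98) nor obst-A (0.05 ± 0.33, adjusted p = 0.96) passed between 16-30 h and 36-48 h, where 0.440% of probes did (0.278% higher, 0.161% lower), and both values change sign under other settings. From 36-48 h to 60-80 h, where 21.2% of probes passed (12.3% higher, 8.83% lower), the changes of -0.76 ± 0.37 for kkv (adjusted p = 0.15) and 0.94 ± 0.39 for obst-A (adjusted p = 0.10) did not pass. kkv declined by value from 1.53 and 0.41 at 60 h to -0.93 and -0.82 at 96 h. obst-A had a late high point at 60 h (1.09 and 2.67) between 0.74 or less at 48 h and 0.86 or less at 72 h.

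Cht7 was low through the first days of metamorphosis and high at its end. On the single array of each time it read between -2.16 and -1.89 from 20 to 36 h, -1.23 at 42 h, -1.22 at 48 h, -0.18 at 60 h, 1.66 at 72 h and 1.64 at 80 h, and the pair at 96 h read 1.70 and 1.25. The 80% rule on missing values left it out of both comparisons of these hours. With probes measured on 50% of the arrays admitted, Cht7 rose by 2.58 ± 0.52 from 36-48 h to 60-80 h (adjusted p = 0.016), 3 arrays against 3, all of slide set B. The muscle markers rose over the same times, with a mean between -3.72 and -1.25 at 36-48 h and between 0.21 and 2.25 at 60-80 h, and their part in the Cht7 value was not tested.

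Across eclosion none of the 3 genes passed in the model with the slide set term. Levels at 0-24 h of adult life were compared with 72-96 h of metamorphosis, where 2.58% of probes passed, 1.11% higher and 1.47% lower. kkv changed by -1.11 ± 0.40 (adjusted p = 0.14), obst-A by -0.33 ± 0.41 (adjusted p = 0.68) and Cht7 by -1.28 ± 0.32 (adjusted p = 0.068). For Cht7 all 4 adult arrays (-0.18 to 0.51) were nevertheless below all 4 pupal arrays (1.25 to 1.70). No slide set A array of 72-96 h had a Cht7 value, so with the slide set term its change rests on the replicate 2 adult arrays alone. Other settings made calls here. kkv passed in slide set A alone (-2.17, adjusted p = 0.025) and with all arrays in 1 fit (adjusted p = 0.043). Slide set A holds no array of 96 h, where kkv already read -0.93 and -0.82, within the adult range of -1.46 to -0.47. Cht7 passed without the slide set term (adjusted p = 0.034) and in 1 fit (adjusted p = 0.027). The mean of the muscle markers lay between 1.63 and 2.28 at 72-96 h and between -0.21 and 0.83 at 0-24 h, and its part in the Cht7 value was not tested.

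In young adults all 3 genes fell within days. kkv read -1.46 and -1.31 in females and -1.04 and -0.47 in males of 0-24 h, and between -3.77 and -0.92 over the 8 arrays of 3 and 5 d. obst-A read -0.64 and -0.31 in females and -0.25 and -0.20 in males of 0-24 h, and between -3.94 and -1.95 at 3 and 5 d. Cht7 read -0.18 and 0.51 in females and 0.36 and 0.07 in males of 0-24 h, and between -1.81 and -0.24 at 3 and 5 d. The ages did not overlap for obst-A or Cht7, and overlapped for kkv through the male 3 d replicate 2 array.

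With sex as a term, obst-A fell by 2.70 ± 0.26 on the log2 scale (adjusted p = 1.69e-04), kkv fell by 1.32 ± 0.26 (adjusted p = 0.019) and Cht7 fell by 1.21 ± 0.21 (adjusted p = 0.0075). This was a comparison in which 1.49% of probes fell, 0.162% rose and 1.65% changed. The fall of obst-A ranked 11 in size among 6795 probes. Split by slide set, kkv read -1.46 (adjusted p = 0.17) in set A and -1.19 (adjusted p = 0.26) in set B, Cht7 -1.33 (adjusted p = 0.18) and -1.08 (adjusted p = 0.21), and obst-A -2.64 in set B (adjusted p = 0.085). The call of kkv was also lost without either female or the male replicate 2 array of 0-24 h, and that of Cht7 without female replicate 2. No difference of this fall between the sexes passed (adjusted p = 0.99 for each gene). The change was -1.68 in females and -0.97 in males for kkv, -2.97 and -2.44 for obst-A, and -1.41 and -1.0 for Cht7. The muscle genes up and Prm fell as well, by 2.10 ± 0.35 (adjusted p = 0.0054) and by 1.23 ± 0.21 (adjusted p = 0.0075). The other muscle marker, Mf, did not pass. The part of these genes in the Cht7 value was not tested.

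After 3 d the levels stayed low. From 3 to 30 d kkv lay between -3.86 and -2.19 in 14 female arrays (median -3.10) and between -2.48 and -0.92 in 13 male arrays (median -2.07). obst-A lay between -4.33 and -2.76 in females (median -3.59) and between -6.36 and -1.95 in males (median -3.32), with the value of -6.36 on the male 15 d replicate 1 array. Cht7 lay between -2.25 and -0.33 in females (median -1.09) and between -1.44 and -0.24 in males (median -0.91). No age slope passed, at -0.22 ± 0.09 per 10 d for kkv (adjusted p = 0.17), -0.40 ± 0.16 for obst-A (adjusted p = 0.15) and -0.08 ± 0.08 for Cht7 (adjusted p = 0.65), where 4.32% of probes passed, 2.44% rising and 1.88% falling. All arrays of 20, 25 and 30 d were of slide set B, so age and slide set are partly confounded in these slopes.

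Between the sexes, kkv was the gene that differed under each alternative tried. It was higher in males by 1.11 ± 0.14 over the wild-type adult arrays (15 male arrays with a value and 16 female) (adjusted p = 8.51e-08), a 2.16-fold difference. From 10 to 30 d every male array was above every female array. Such a call is common, since 74.0% of probes passed with 39.9% higher in males and 34.1% lower. obst-A differed by 0.19 ± 0.20 (adjusted p = 0.39), and this value was -0.03 without centring and -0.46 under quantile normalization. Cht7 was higher in males by 0.30 ± 0.12 (adjusted p = 0.033), a call lost without centring (0.07), under quantile normalization (0.10), in slide set B alone (0.15) and on leaving out any of 10 single arrays. Females carry egg RNA as well as body RNA: the mean of the female germline markers exu, mtrm and PCNA lay between 0.81 and 3.21 in females and between -1.12 and 0.23 in males. At 3-30 d, mtrm and PCNA had means of 3.09 and 2.09 in females and -1.23 and -2.16 in males. The marker exu went the other way, with means of 1.72 in females and 2.19 in males. The muscle markers were also higher in males, by 1.27 ± 0.18 for up, 1.22 ± 0.11 for Prm and 0.83 ± 0.14 for Mf. The part of either in the kkv difference was not tested.

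**Figure D3:**
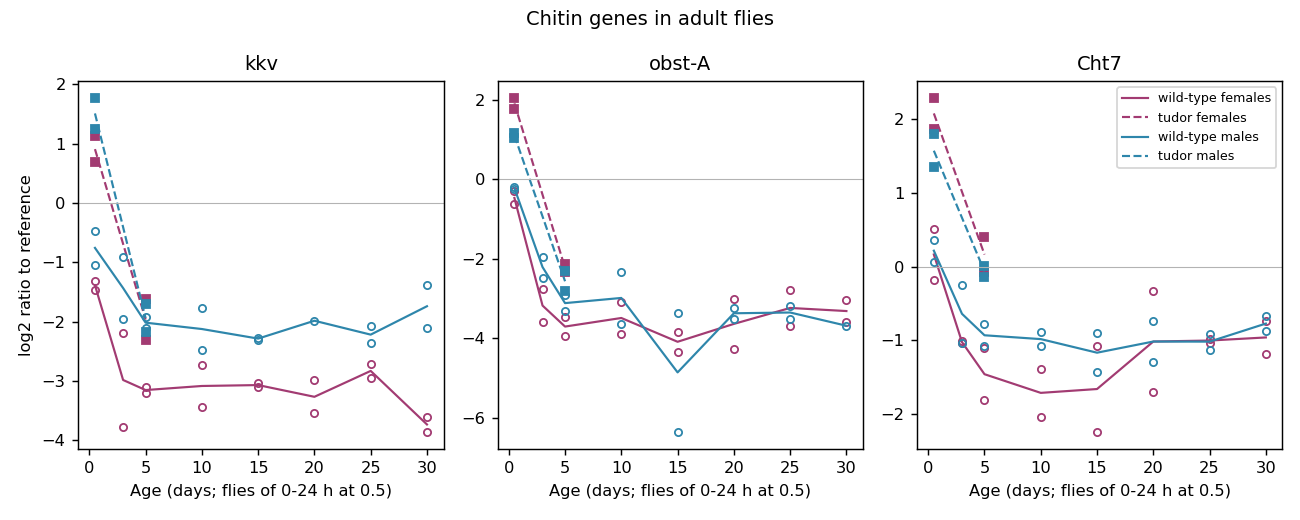
Log2 ratio to the reference (vertical axis) of kkv, obst-A and Cht7 against age in days, with flies of 0-24 h drawn at 0.5 d. Points are arrays (open circles wild type, filled squares tudor) and lines join the means of an age for each sex. All genes are higher at 0-24 h than later, tudor flies of 0-24 h lie above the wild type, and kkv is lower in wild-type females than in males.

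With both ages in 1 model, flies of the tudor groups had higher values of all 3 genes than wild-type flies, and of the 3 only Cht7 passed at 5 d taken alone. At 0-24 h kkv read 0.68 and 1.13 in tudor females and 1.24 and 1.77 in tudor males. obst-A read 2.05 and 1.76 in females and 1.17 and 1.03 in males, and Cht7 2.30 and 1.87 in females and 1.35 and 1.80 in males. For each gene all 4 arrays were above all 4 wild-type arrays of that age given above, and the share of all probes that do so was not counted.

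At 5 d the groups came closer. kkv lay between -2.30 and -1.63 in the 4 tudor arrays and between -3.20 and -1.93 in the 4 wild-type arrays, and obst-A between -2.82 and -2.13 against -3.94 and -2.91. Cht7 lay between -0.14 and 0.41 against -1.81 and -0.78. obst-A and Cht7 did not overlap between genotypes, and kkv did.

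Over both ages, kkv was higher in tudor flies by 1.23 ± 0.28 (adjusted p = 0.00128), obst-A by 1.07 ± 0.30 (adjusted p = 0.0076) and Cht7 by 1.21 ± 0.20 (adjusted p = 7.82e-05). In that fit 21.9% of probes were higher, 13.7% lower and 35.6% differed. The obst-A difference was 0.78 under quantile normalization (adjusted p = 0.099). The tudor arrays were all of slide set B, and all 3 calls were also made among the slide set B arrays alone. Read by age in a comparison added later, the differences at 0-24 h were 2.05 ± 0.29 for kkv (adjusted p = 7.09e-05), 1.49 ± 0.40 for obst-A (adjusted p = 0.011) and 1.40 ± 0.28 for Cht7 (adjusted p = 0.0010), where 12.7% of probes were higher, 6.63% lower and 19.3% differed. At 5 d they were 0.40 ± 0.29 (adjusted p = 0.31), 0.65 ± 0.40 (adjusted p = 0.23) and 1.01 ± 0.28 (adjusted p = 0.0088), where 16.1% were higher, 9.42% lower and 25.5% differed. Of the 3 genes, the change of the tudor difference between the ages passed for kkv, at 1.65 ± 0.39 (adjusted p = 0.037, with 1.01% of probes called), and was 0.84 ± 0.54 for obst-A (adjusted p = 0.55) and 0.39 ± 0.37 for Cht7 (adjusted p = 0.72). No difference of the tudor effect between the sexes passed (adjusted p from 0.19 to 0.46). Fitted by sex, the tudor difference of kkv was 1.49 ± 0.33 in females and 0.96 ± 0.41 in males. For obst-A it was 1.73 ± 0.35 and 0.41 ± 0.40, and for Cht7 1.45 ± 0.31 and 0.96 ± 0.23. The female germline markers were low in tudor flies, with a mean between -2.83 and -1.15 over both ages and a difference of -5.20 ± 0.33 for exu, a gene of germline RNA localization. The muscle markers were higher, with a mean between 1.81 and 2.57 in tudor and between -0.21 and 0.83 in wild-type flies of 0-24 h. Whether either moved the values of these genes was not tested.

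**Figure D4:**
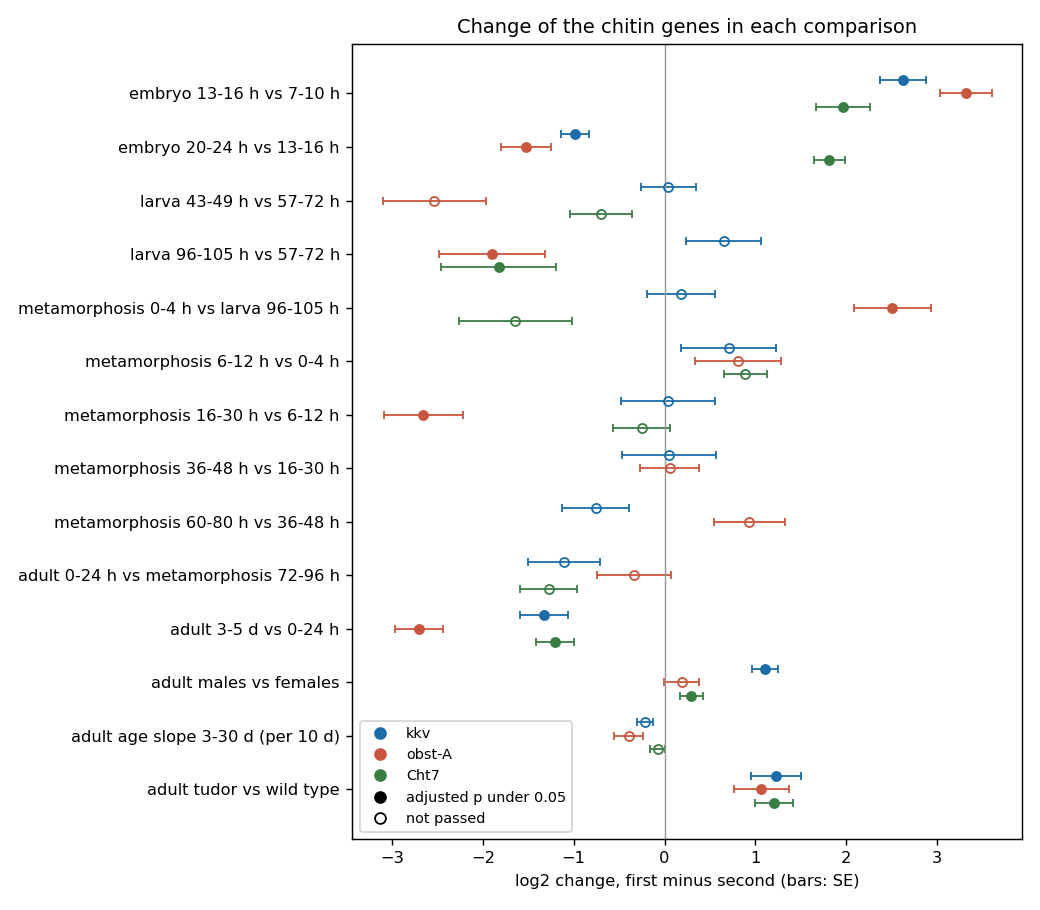
Change of kkv, obst-A and Cht7 on the log2 scale (horizontal axis, first window minus second) in the 14 comparisons, with bars of 1 standard error. Filled points passed an adjusted p of 0.05 in limma and open points did not. The late embryo splits Cht7 (1.82) from kkv (-0.99) and obst-A (-1.53), and 3-5 d against 0-24 h of adult life lowers all 3. Cht7 has no point in 2 metamorphosis comparisons.

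Over the 14 comparisons, kkv passed in 5 (3 higher, 2 lower), obst-A in 7 (3 higher, 4 lower) and Cht7 in 6 of the 12 in which it was tested (4 higher, 2 lower). The share of all probes that passed ran from 0.102% (larva 43-49 h) to 74.0% (the sexes). The counts were not set against those of other probes. Ordered over 25 windows of the life cycle, the mean of kkv ran from 1.30 at 36-48 h of metamorphosis, 1.25 at 16-30 h and 1.21 at 6-12 h down to -3.16 in females of 3-30 d and -3.57 at 0-2 h of the embryo. That of obst-A ran from 2.76 at 16-20 h of the embryo and 2.56 at 6-12 h of metamorphosis to -3.52 in females of 3-30 d and -3.93 at 0-2 h. That of Cht7 ran from 2.54 at 20-24 h and 2.20 at 16-20 h of the embryo to -2.0 at 0-4 h of metamorphosis and -2.06 at 0-2 h of the embryo. For each gene, all 24 pairs of neighbours in this order had overlapping ranges of arrays, so the order of close windows is not resolved.

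The resemblance of the genes varied with the stage. Across the 80 group means the Pearson correlation of kkv with obst-A was 0.84, that of obst-A with Cht7 0.51 and that of kkv with Cht7 0.40. In the same order, the 3 correlations within the 30 embryo groups were 0.86, 0.84 and 0.78, and within the 20 adult groups 0.87, 0.94 and 0.90. Within the 18 metamorphosis groups they were 0.12, -0.16 and -0.42, and within the 12 larval groups 0.28, 0.64 and 0.21. Groups share the reference RNA and the slide sets, and these values describe the arrays without a test. In metamorphosis kkv declined after 48 h while Cht7 climbed, and obst-A had its high point before 16 h.

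Among 2894 other genes with a single name, the closest profile to kkv was that of verm (r = 0.91 over 80 groups), a chitin deacetylase gene. obst-A (0.84), sano (0.83), tmod, which encodes tropomodulin (0.82), and Fmo-1 (0.82) followed. The closest to obst-A was again verm (0.93), followed by CG18094 (0.92), obst-B (0.91), which encodes a related chitin-binding protein, Lztr1 (0.88) and kkv (0.84). The closest to Cht7 were up (0.92), snRNP-U1-70K (0.90), Actn, which encodes alpha-actinin (0.87), Prm (0.87) and CG2691 (0.86). No chitin pathway gene stood among the 5 closest to Cht7, and obst-E, at rank 26, was the highest of them (0.76).

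The other genes of the pathway were counted from a list of 49 names, of which 16 had a probe and 13 remained beside kkv, obst-A and Cht7. In the embryo, from 7-10 h to 13-16 h, 9 of 11 tested rose and 0 fell, with a median change of 0.87 against -0.06 over all probes, of which 18.8% rose and 21.0% fell. The largest of these were verm (3.41 ± 0.37, adjusted p = 6.27e-06) and obst-B (3.25 ± 0.29, adjusted p = 2.40e-06). From 13-16 h to 20-24 h, 4 of 10 rose and 3 fell, near the shares of all probes (34.0% and 30.9%). Among the risers were obst-E, a chitin-binding gene of the obst-A family (4.71 ± 0.30, adjusted p = 1.76e-09), and Idgf1 (4.69 ± 0.17, adjusted p = 4.39e-12) and Idgf2 (2.18 ± 0.17, adjusted p = 4.86e-08), which encode chitinase-like proteins without known chitin cleavage. obst-B fell there by 0.69 ± 0.22 (adjusted p = 0.015), while verm changed by -0.24 ± 0.27 (adjusted p = 0.46).

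In metamorphosis 2 of 10 pathway genes rose between 0-4 h and 6-12 h and 0 fell, against 0.851% and 0.612% of all probes. They were obst-E (4.88 ± 0.79, adjusted p = 0.0068) and obst-B (1.88 ± 0.40, adjusted p = 0.039). From 36-48 h to 60-80 h, 1 of 9 rose, Idgf5 (1.68 ± 0.17, adjusted p = 9.11e-05), and 1 fell, the chitinase gene Cht10 (fell by 1.42 ± 0.19, adjusted p = 4.17e-04), where 12.3% of all probes rose and 8.83% fell. In young adults 2 of 11 fell from 0-24 h to 3-5 d, verm by 2.65 ± 0.30 (adjusted p = 5.33e-04) and obst-B by 3.13 ± 0.36 (adjusted p = 6.32e-04), and 1 rose, Idgf1 (0.80 ± 0.18, adjusted p = 0.043). Of all probes 1.49% fell and 0.162% rose. Between the sexes 4 of 11 were higher in males and 1 lower, the chitinase gene Cht2 (-1.70 ± 0.15, adjusted p = 3.06e-11), against 39.9% and 34.1% of all probes. In tudor flies 7 of 11 were higher and 0 lower, with a median difference of 0.84 against 0.10 over all probes, of which 21.9% were higher and 13.7% lower. They included verm (1.67 ± 0.26, adjusted p = 3.55e-05) and Gfat2, which encodes an enzyme that feeds the synthesis of the chitin precursor (0.84 ± 0.23, adjusted p = 0.0057). For Gnpnat and mmy, enzyme genes of the same route, and for Muc68D, the change of largest size over the 14 comparisons did not pass. Smaller changes did: Gnpnat rose by 0.72 ± 0.25 (adjusted p = 0.037) and Muc68D by 0.87 ± 0.25 (adjusted p = 0.012) from 7-10 h to 13-16 h of the embryo. Muc68D passed in 3 further comparisons, among them a fall of 0.78 on the log2 scale (-0.78 ± 0.17, adjusted p = 8.72e-04) at 20-24 h.

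**Figure D5:**
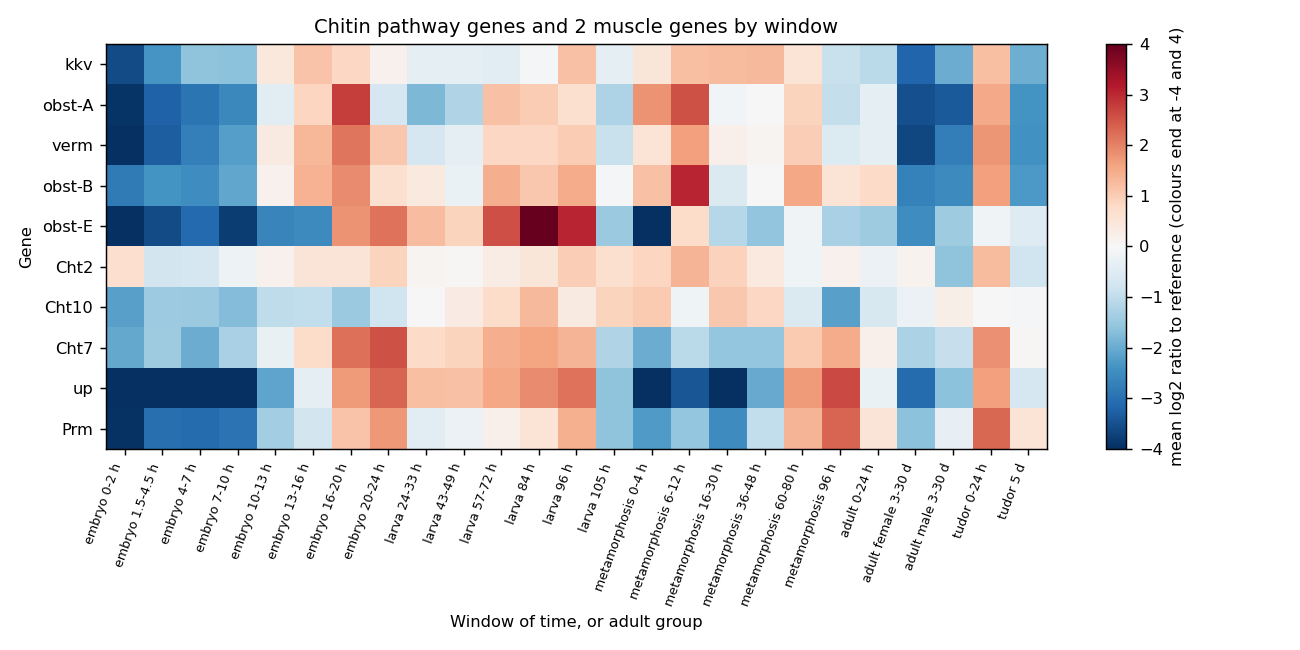
Mean log2 ratio to the reference (colour, ends of the scale at -4 and 4) of the 3 genes, 5 other chitin pathway genes and the muscle genes up and Prm in each window of time or adult group (horizontal axis). verm and obst-B share the low early embryo, the high 16-20 h embryo and the low adult values of 3-30 d with obst-A. Cht7 is high where up is high, at 20-24 h of the embryo and at 96 h of metamorphosis.

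The other lists give the setting. Of 14 genes of cuticle proteins and tanning with a probe, 12 rose and 1 fell from 13-16 h to 20-24 h of the embryo, with a median change of 1.73 against 0.02 over all probes (34.0% rose and 30.9% fell), at the time when kkv and obst-A fell. In the step from 0-4 h to 6-12 h of metamorphosis 0 of 14 passed. From 36-48 h to 60-80 h 5 rose and 1 fell (median 1.01 against 0.00, with 12.3% and 8.83% of all probes). In young adults 4 of 13 fell and 0 rose (median -0.57 against -0.01, with 1.49% and 0.162% of all probes). The ecdysone and molting list had 4 genes with a probe (EcR, Hr3, Hr39 and ImpL2). From 57-72 h to the last 2 larval times 1 of them fell, Hr3 (-2.23 ± 0.35, adjusted p = 4.90e-04), where 20.1% of all probes fell. Genes of this list also passed in other comparisons, which are not listed here.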

How the data were processed

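The deposited values are log2 ratios of sample to common reference, per the labels the red over the green channel; how the authors normalized them before deposit is not given in the sources used here. In 13 arrays a comment gives Cy5 as the dye of the sample, and the direction is taken as likely for the others. The depth of an array is not a count of molecules, and the number of arrays limits the precision. The 252 values above 16 on the log2 scale were treated as missing, and each array was then centred on its median (medians from -0.783 to 0.768). Arrays held 6722 to 8547 of 12588 values. Of the probes, 4137 carry 1 gene name, 159 several and 8292 none, and 4089 named probes matched a gene listed by RefSeq.

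Windows of time were compared with limma 3.58.1 in R 4.3.3 (with data.table, version 1.17.8), with the slide set as a term, sex or age where they vary, and probes with a value on 80% of the arrays of a fit. Benjamini-Hochberg adjustment ran over all probes tested, with a threshold of 0.05. There were 14 planned comparisons, with 15 alternatives listed for each and run where they changed its arrays or values, and 7 comparisons plus the test between the tudor ages that were added after the values were seen. The members and gene lists were chosen with earlier results of these data known. Besides the 3 genes, the 5 genes of closest profile and, from the chitin list, each gene with its largest passing change were named; the other pathway values were chosen after they were seen. Same-numbered replicates deviated together in every pair of groups (correlation over 0.1) in the embryo comparisons of 20-24 h with 13-16 h, 16-20 h with 13-16 h and 20-24 h with 16-20 h, in the metamorphosis comparisons of 36-48 h with 16-30 h and 60-80 h with 36-48 h, and in adults of 3-5 d with 0-24 h. The median correlations ranged from 0.34 to 0.65.

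The model was tested on simulated data with 100 changed probes of each size. The simulated noise was independent between arrays, so it held no shared slides, no replicates that deviate together and no arrays that stood apart. Changes of 1 and 2 on the log2 scale were recovered in 94% and 100% for the embryo at 20-24 h against 13-16 h (6564 probes), in 43% and 96% for metamorphosis at 6-12 h against 0-4 h (6696 probes), and in 97% and 100% for the sexes (6860 probes). False calls numbered 7, 3 and 5 in the same order. Sequences of the probes and genes were not used here.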

Additional observations from a re-analysis of the deposited data

Results flagged for a closer look

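In 58 windows of 4 to 10 arrays, the highest or lowest array was compared with its neighbour, and 6 values lay far from the rest of their window. Dixon's criterion, which was used, picks out some windows by chance. All 6 were on the 4 arrays that stood apart from their other replicate. For kkv they were metamorphosis 12 h replicate 1, at -1.45 with the nearest of 8 arrays at 0.85, and metamorphosis 16 h replicate 1, at -1.39 with the nearest of 8 at 1.09. For obst-A they were embryo 2-3 h replicate 1, at 0.807 with the nearest of 10 at -2.81, and embryo 4-5 h replicate 1, at 1.36 with the nearest of 10 at -2.64. For Cht7 they were embryo 2-3 h replicate 1, at 0.667 with the nearest of 10 at -1.43, and metamorphosis 16 h replicate 1, at -0.173 with the nearest of 5 at -1.54.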

How the results depend on the processing

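Of 432 other settings tried for the 3 genes in the 14 comparisons, 378 kept the direction and the call, 22 lost the call, 12 gained it and 20 changed sign, none of them for a value that had passed. Of 213 settings of the added comparisons the numbers were 196, 11, 2 and 4, with 1 change of sign for a passing value. The cause of these changes was not tested. Each gene had 1 probe, so averaging probes was not run, and single arrays were not left out in the added comparisons.

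Slide set A holds 1 array of embryo 7-10 h and 1 of the last 2 larval times, so its values there are no test: 1.15 for Cht7 at 13-16 h, -0.79 for obst-A and -0.52 for Cht7 at the last 2 larval times, and -0.34 for kkv and -2.76 for Cht7 at metamorphosis 0-4 h. In the same set kkv read -0.12 and obst-A -2.68 from 6-12 h to 16-30 h, and obst-A -0.070 from 16-30 h to 36-48 h. kkv read -2.17 across eclosion (a gained call), against 72 and 80 h alone. From 0-24 h to 3-5 d kkv read -1.46 and Cht7 -1.33. Between the sexes obst-A read -0.021, and the kkv slope was 0.035 per 10 d. The set holds no array of 96 h of metamorphosis and no adult array after 15 d. Within slide set B alone, kkv read -0.054 for larvae of 43-49 h, Cht7 -2.30 for the last 2 larval times, kkv -0.64 for metamorphosis 36-48 h, obst-A 0.001 across eclosion, and from 0-24 h to 3-5 d kkv -1.19, obst-A -2.64 and Cht7 -1.08. Cht7 read 0.15 between the sexes there, and -0.0098 from 0-2 h to 4-7 h.

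Quantile normalization gave -2.59 for obst-A in larvae of 43-49 h, -1.53 for Cht7 at the last 2 larval times, -0.46 for obst-A and 0.10 for Cht7 between the sexes, and 0.78 for obst-A in tudor flies. It gave -0.0036 for Cht7 from 16-20 h to 20-24 h and -0.32 from 0-2 h to 4-7 h. Without centring, kkv read -0.027 and obst-A -0.020 at 36-48 h of metamorphosis, and obst-A -0.030 and Cht7 0.069 between the sexes. Without a slide set term, Cht7 read -1.37 across eclosion, 0.30 between the sexes and 0.061 per 10 d, and kkv -1.32 at 3-5 d (adjusted p = 0.061). With all arrays in 1 fit, obst-A read -2.42 (larva 43-49 h), Cht7 -1.42 (puparium formation), kkv -1.0 and Cht7 -1.33 (eclosion), and Cht7 -1.21 (3-5 d), 0.30 (sexes) and 0.025 (slope).

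Without the arrays of disagreeing comments, the larval changes to the last 2 times were 1.23 for kkv, -1.39 for obst-A and -1.48 for Cht7, and kkv read -0.13 at puparium formation. Without the 4 arrays that stood apart, the values at 6-12 h were 1.08, 1.12 and 0.78, kkv read -0.36 at 36-48 h and Cht7 -0.080 from 0-2 h to 4-7 h. Without the 9 replicate 1 arrays of 20 to 80 h, kkv read -0.55 and obst-A -2.48 at 16-30 h, kkv -0.64 at 36-48 h and obst-A 0.001 across eclosion.

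With the replicate number as a block, no call of the 3 genes changed in the planned comparisons, and the Cht7 slope read 0.061. The block moved the calls over all probes from 296 to 1518 for the slope, from 179 to 102 across eclosion, from 7 to 1 for larvae of 43-49 h and from 1450 to 2431 for the last larval time against 72-84 h. With the slide as a random block, no call of the 3 genes changed. Calls over all probes then went from 179 to 26 across eclosion and from 98 to 12 for metamorphosis 6-12 h.

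Leaving out single arrays gave, for kkv, -0.081 to 0.23 (larva 43-49 h), -0.027 to 0.37 (puparium formation), 0.48 to 1.08 (6-12 h), -0.33 to 0.41 (16-30 h), -0.36 to 0.43 (36-48 h), -1.04 to -0.52 (60-80 h) and -1.44 to -1.14 (3-5 d). For obst-A it gave -2.87 to -2.27 (larva 43-49 h), -2.30 to -1.47 (last 2 larval times), 0.59 to 1.12 (6-12 h), -0.086 to 0.27 (36-48 h), 0.58 to 1.23 (60-80 h) and 0.11 to 0.35 (sexes). For Cht7 it gave -2.30 to -1.56 (last 2 larval times), -1.82 to -1.29 (puparium formation), 0.78 to 0.99 (6-12 h), -1.41 to -1.08 (3-5 d) and 0.25 to 0.37 (sexes).

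Calls over all probes also moved with the setting. From 2712 (13-16 h embryo) and 2093 (last 2 larval times) they went to 907 and 0 in slide set A, with 1 array in an arm. The 7 of larva 43-49 h became 182 under quantile normalization, and the 98, 139 and 30 of metamorphosis 6-12 h, 16-30 h and 36-48 h became 230, 885 and 260 without the arrays that stood apart. The 112 of 3-5 d became 18 in set A and 14 in set B, and the 179 across eclosion 838 and 12.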
